A study of Mus musculus with 89 samples.

Results

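The 10 genes described here are markers of the primitive streak and of mesoderm in the mouse embryo. They are T, Eomes, Mixl1, Gsc, Mesp1, Lhx1, Evx1, Foxa2, Snai1 and Meox1, chosen by symbol from the 54146 gene rows of the expression tables, and each symbol matched 1 row. Their transcript levels were followed in mouse embryonic stem cells (ESCs) that lack Esrrb, Nr5a2 or both. These factors are orphan nuclear receptors that bind closely related DNA sequences and act in the network of transcription factors that keeps ESCs pluripotent.

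The cells were EKOiE ESCs, in which both copies of Esrrb are knocked out and a doxycycline (Dox) inducible transgene supplies the factor, so that every group compared here lacks a working endogenous Esrrb gene. In the +E+N state EKOiE cells were kept with Dox at 1 µg/ml, and in the −E state Dox was withdrawn for 2 days. The −N state was the derived line EKOiE NrKO, in which the exon of Nr5a2 that encodes part of the DNA-binding domain was disrupted at both alleles, kept with Dox at 1 µg/ml, and the −E−N state was EKOiE NrKO without Dox for 2 days. Each state was grown in serum with LIF (FCS/LIF), with 2 replicate libraries a state, and in a chemically defined medium that holds inhibitors of MEK and of GSK3 with LIF (2i/LIF), with 3 replicate libraries a state, giving 20 libraries of RNA in 8 groups. The library labels do not name the NrKO clone, although the supplement of the study describes its RNA-seq of the disrupted alleles in clone 4. A line derived from that clone in which 1 allele was repaired was not analysed here. Within these 20 libraries effects of the line cannot be told apart from those of Nr5a2 loss. The same holds for effects of Dox withdrawal and those of Esrrb loss, and for effects of the medium and those of the culture batch. The 69 ChIP-seq and input samples of the series were not analysed here.

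The primitive streak is the site at which epiblast cells leave the epithelium during gastrulation and form mesoderm and definitive endoderm. Wnt and Nodal signals in the posterior epiblast induce it, the T-box factors T and Eomes are among its earliest markers, and the homeobox factor Gsc and the forkhead factor Foxa2 mark its anterior end. Snai1 represses E-cadherin as cells delaminate, and Mesp1 and Meox1 mark nascent mesoderm and the somites that derive from paraxial mesoderm.

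The upstream sequences of T, Eomes and Gsc are shown because these genes responded to the medium or to the loss of both factors in different directions, and because Tcf/Lef factors, which act at the end of the Wnt pathway that GSK3 inhibition in 2i/LIF activates, bind short known words. RefSeq (build GRCm38.p6, the patched release of mm10) gave a start site for 8 of the 10 genes, and Mixl1 and Meox1 had no entry in the table used. Each run holds the 250 bases before the start, 5′ to 3′ on the strand of the gene, and capitals mark matches, on either strand, to the Tcf/Lef word CTTTGAA or its relatives, which are CTTTGAT, then CTTTGTA, and as the last one CTTTGTT.
T (chr17:8434173-8434422, plus strand): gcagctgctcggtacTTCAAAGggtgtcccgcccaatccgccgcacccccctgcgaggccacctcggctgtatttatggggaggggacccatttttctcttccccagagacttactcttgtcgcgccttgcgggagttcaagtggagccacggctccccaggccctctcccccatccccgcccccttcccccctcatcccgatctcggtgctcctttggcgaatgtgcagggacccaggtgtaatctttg
Eomes (chr9:118477939-118478188, plus strand): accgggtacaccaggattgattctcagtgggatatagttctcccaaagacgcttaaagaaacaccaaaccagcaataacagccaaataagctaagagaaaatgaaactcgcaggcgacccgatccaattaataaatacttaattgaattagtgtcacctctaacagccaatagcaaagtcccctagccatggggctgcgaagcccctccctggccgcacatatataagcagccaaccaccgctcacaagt
Gsc (chr12:104473237-104473486, minus strand): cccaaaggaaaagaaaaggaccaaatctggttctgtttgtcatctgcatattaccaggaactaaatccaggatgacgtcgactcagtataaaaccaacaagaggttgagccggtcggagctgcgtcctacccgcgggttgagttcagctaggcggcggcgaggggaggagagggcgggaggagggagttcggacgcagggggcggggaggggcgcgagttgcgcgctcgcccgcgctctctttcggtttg

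The T window held 1 such word, from position −235 to −229 relative to the start, read on the opposite strand, and the Eomes and Gsc windows held none. Of the 8 genes with a start, 2 held a word, T and Mesp1, against 16.8% of the 27025 genes with a RefSeq window. The word TCAAGGTCA, known to bind both Esrrb and Nr5a2, and its variant TCAAGGCCA were in none of the windows of the 8 genes and in 1.02% of all genes. No word overlapped another in these windows, and a match or its absence in 250 bases describes the letters only.

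The FCS/LIF libraries held 36514172 to 45443379 counts each and the 2i/LIF libraries 26653035 to 32526534. In the GENCODE vM21 annotation of mm10 the markers are protein-coding genes, with T at chr17:8434423-8442496, Eomes at chr9:118478212-118486132, Gsc at chr12:104471209-104473330, Foxa2 at chr2:148042877-148046969, Snai1 at chr2:167538195-167542814 and Meox1 at chr11:101877510-101894374. A count of 0 allows up to 3 counts, which is at most 0.0822 CPM (counts scaled to a common library total) in FCS/LIF and 0.113 in 2i/LIF, and covers counting error only. Esrrb RNA, counted over the transgene and the disrupted locus together, fell in −E−N against +E+N by 3.39 on the log2 scale in FCS/LIF and by 1.97 in 2i/LIF, and in −E it fell by 2.18 in FCS/LIF, while in 2i/LIF its log2 change in −E was −0.46 (adjusted p = 0.116, edgeR). In TPM, which are transcript levels per length scaled to a common total, Esrrb was 187, 252 and 273 in the 2i/LIF +E+N libraries and 122, 133 and 113 in the −E libraries, so these groups did not overlap. Nr5a2 RNA in −N against +E+N had a log2 change of −0.55 in FCS/LIF (adjusted p = 0.0212, edgeR) and of −0.05 in 2i/LIF (adjusted p = 0.924), and since counts over the whole gene include RNA from the disrupted alleles, they do not check the loss of the targeted exon. The markers of undifferentiated ESCs Pou5f1, Sox2, Nanog and Zfp42 summed to at least 1132 TPM in each of the 20 libraries.

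Loss of both factors changed the streak and mesoderm markers in both media, and the direction depended on the gene and the medium. A marker was called where edgeR's quasi-likelihood test gave a p under 0.01, after Benjamini-Hochberg adjustment over all genes tested, and a fold change over 1.5, and it was tested only if at least 1 state had 20 counts or more in every replicate. In FCS/LIF, 7 of the 10 markers could be tested, and 4 passed in −E−N against +E+N, where 18.8% of all genes tested did. T, Eomes and Snai1 rose (3 of 7, against 12.4% of all genes) and Meox1 fell (1 of 7, against 6.4%). In 2i/LIF, 7 could be tested and 6 passed, against 18.6% of all genes. T, Foxa2, Snai1 and Meox1 rose (4 of 7, against 9.06%) and Eomes and Gsc fell (2 of 7, against 9.56%). In 2i/LIF Meox1 passed the filter only through −E−N, the state in which it was high, so that its call there and the count that includes it are a description and support nothing. In RNA from whole cultures, more cells that express a marker and more of its RNA per cell cannot be told apart.

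**Figure D1:**
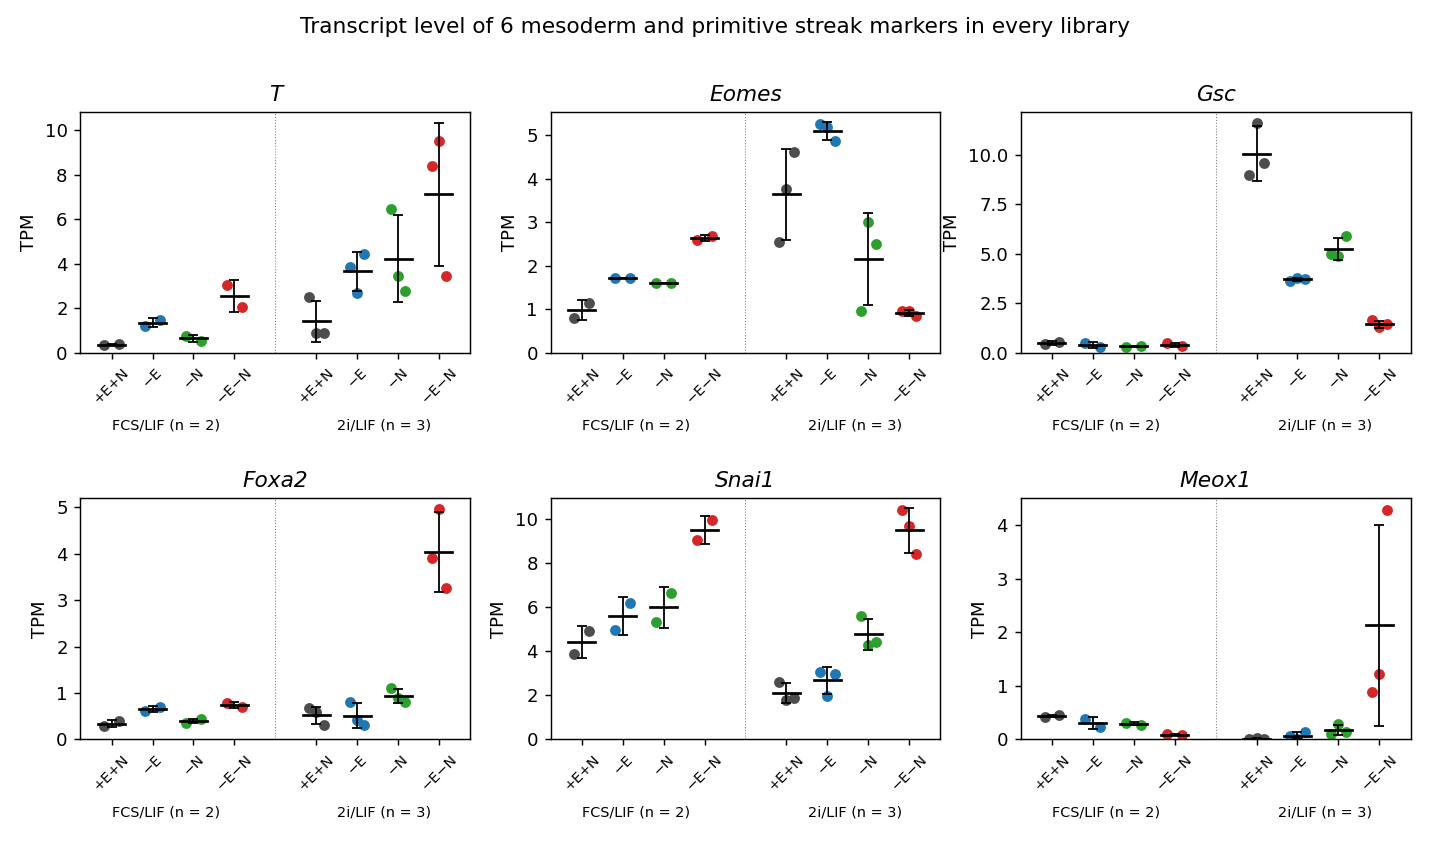
Level in TPM (vertical axes, starting at 0) of T, Eomes, Gsc, Foxa2, Snai1 and Meox1 in each library (points) for the 4 states in FCS/LIF (left of the dotted line, 2 libraries a state) and 2i/LIF (right, 3 libraries a state), with the mean (horizontal line) and SD (bars). Gsc was at 0.27 to 0.55 TPM in FCS/LIF and at 1.29 to 11.62 TPM in 2i/LIF, and Eomes in −E−N was at 2.58 and 2.69 TPM in FCS/LIF and at 0.84 to 0.96 TPM in 2i/LIF.

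T (Brachyury) is required for the formation of posterior mesoderm and the notochord. In FCS/LIF its level was 0.34 and 0.38 TPM in +E+N, 1.21 and 1.49 TPM in −E, 0.77 and 0.55 TPM in −N, and 3.07 and 2.04 TPM in −E−N. The −E and −E−N libraries lay above all those of the states with Esrrb. No state overlapped another in TPM, whereas in CPM +E+N (0.43 to 0.49) and −N (0.44 to 0.78) did. T was 5.69-fold higher in −E−N than in +E+N (log2 fold change 2.51 ± 0.30 SE, adjusted p = 0.000221, edgeR), a call that held without any 1 of the 8 libraries. In 2i/LIF its level was 2.49, 0.87 and 0.89 TPM in +E+N, 3.84, 2.71 and 4.45 TPM in −E, 6.46, 3.44 and 2.80 TPM in −N, and 8.39, 9.53 and 3.47 TPM in −E−N. Each of the libraries lacking a factor lay above the +E+N libraries, but replicate 1 of +E+N stood above its fellows and replicate 3 of −E−N below. T was 5.44-fold higher in −E−N (log2 fold change 2.45 ± 0.53 SE, adjusted p = 0.00275, edgeR). The call was lost without +E+N replicate 2 or 3 or without −E−N replicate 1 or 2, with adjusted p, in this order, of 0.0154, 0.0146, 0.0104 and 0.0116, and without +E+N replicate 1 the log2 fold change was 3.23.

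Eomes directs the anterior streak, from which cardiac mesoderm and definitive endoderm arise, and is also expressed in the trophectoderm lineage. In FCS/LIF its level was 0.81 and 1.14 TPM in +E+N, 1.72 in both −E libraries, 1.61 and 1.60 TPM in −N, and 2.58 and 2.69 TPM in −E−N. The order was the same for every library, with +E+N lowest and −E−N highest, and the rise in −E−N was 2.34-fold (log2 fold change 1.22 ± 0.16 SE, adjusted p = 0.0004, edgeR). In 2i/LIF its level was 2.54, 3.77 and 4.62 TPM in +E+N, 5.26, 5.18 and 4.86 TPM in −E, 0.96, 3.01 and 2.49 TPM in −N, and 0.95, 0.96 and 0.84 TPM in −E−N. Here −E was the highest state and −E−N the lowest, apart from −N replicate 1, which lay at the −E−N level. The −E−N level of Eomes was 3.84-fold below that of +E+N (log2 fold change −1.94 ± 0.31 SE, adjusted p = 0.000327, edgeR) and 5.68-fold below that of −E (log2 fold change −2.51 ± 0.31 SE, adjusted p = 9.47e-05). Both calls held without any 1 of the 12 libraries.

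Markers of trophectoderm moved with the state as well. Of the 6 listed (Cdx2, Elf5, Gata3, Tfap2c, Krt8 and Krt18), 5 of 6 tested rose in −E−N in FCS/LIF, against 12.4% of all genes. In 2i/LIF, 4 of 5 tested of these markers rose, against 9.06% of all genes. Their summed level was 251 to 303 TPM in +E+N and 1119 to 1725 TPM in −E−N in FCS/LIF, and 40.8 to 49.7 TPM and 211 to 342 TPM in 2i/LIF, where Eomes fell. The keratin genes Krt8 and Krt18 took the largest share of each sum except in the +E+N libraries of 2i/LIF, where Tfap2c did. Cdx2 went from 0.38 to 1.41 TPM in +E+N to 22.87 to 30.63 TPM in −E−N in 2i/LIF, and Elf5 was at or below 0.56 TPM in the +E+N and −E−N libraries of 2i/LIF. The part of such cells in the Eomes values was not tested.

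Gsc, a homeobox repressor of the anterior streak and the organizer, was high in 2i/LIF and fell there with the loss of either factor. In FCS/LIF its level lay between 0.27 and 0.55 TPM in all 8 libraries, at 9 to 20 counts, and it was not tested there. In 2i/LIF its level was 8.99, 11.62 and 9.60 TPM in +E+N, 3.63, 3.77 and 3.72 TPM in −E, 4.98, 4.91 and 5.90 TPM in −N, and 1.64, 1.29 and 1.43 TPM in −E−N. The 4 states did not overlap, and the lowest of them was still above every FCS/LIF library. Gsc was 2.64-fold lower in −E (log2 fold change −1.40 ± 0.16 SE, adjusted p = 0.000444), 1.91-fold lower in −N (−0.94 ± 0.16 SE, adjusted p = 0.00284) and 6.91-fold lower in −E−N (−2.79 ± 0.17 SE, adjusted p = 2.53e-07, all edgeR). The −E−N level was also below that of −E (log2 fold change −1.39 ± 0.17 SE, adjusted p = 0.000102) and of −N (−1.85 ± 0.17 SE, adjusted p = 3.15e-05). Gsc was the only marker that edgeR called after loss of Esrrb alone in either medium. Of these calls, that in −N was lost without +E+N replicate 2 or −N replicate 1 or 2 (adjusted p between 0.0139 and 0.0202), and the others held without any 1 library.

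Foxa2, a pioneer factor of the node, notochord and endoderm, rose in 2i/LIF after loss of both factors. Its level in 2i/LIF was 0.67, 0.58 and 0.31 TPM in +E+N, 0.81, 0.41 and 0.32 TPM in −E, 1.10, 0.90 and 0.81 TPM in −N, and 3.90, 4.96 and 3.26 TPM in −E−N. The −E−N libraries stood clear of all others, whereas +E+N and −E overlapped. The difference from +E+N was 8.71-fold (log2 fold change 3.12 ± 0.37 SE, adjusted p = 3.19e-05, edgeR), and −E−N was also above −E (log2 fold change 2.89 ± 0.36 SE, adjusted p = 9.68e-05) and −N (2.13 ± 0.34 SE, adjusted p = 0.00128). These 3 calls held without any 1 library. In FCS/LIF its level was 0.29 and 0.39 TPM in +E+N, 0.61 and 0.70 TPM in −E, 0.36 and 0.43 TPM in −N, and 0.79 and 0.69 TPM in −E−N. The states without Esrrb were above those with it in each library, but no difference passed (log2 fold change in −E−N 0.94 ± 0.27 SE, adjusted p = 0.0188, edgeR).

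Foxa2 is shared with endoderm, and markers of primitive endoderm were therefore followed beside it. Of 5 (Gata4, Gata6, Sox17, Sox7 and Dab2), 3 were tested in −E−N in 2i/LIF, and Gata4 was called lower, against 9.56% of all genes. Gata4 entered that fit only through its +E+N libraries, so its call is a description. Sox17 was at 0.14 to 0.6 TPM in +E+N and at 0.8 to 3.28 TPM in −E−N, with no overlap (log2 fold change 2.14 ± 0.59 SE, adjusted p = 0.0114, edgeR), and Sox7 was at or below 0.17 TPM in the +E+N and −E−N libraries. Sox17 passed the filter there only through −E−N, the state in which it was high, so its difference is a description. In FCS/LIF, 5 were tested and Dab2 rose, against 12.4% of all genes. The summed level was 1.46 to 2.70 TPM in +E+N and 1.89 to 4.36 TPM in −E−N in 2i/LIF, and 9.05 to 13.1 TPM and 20.5 to 24.4 TPM in FCS/LIF, the part of which in the Foxa2 values was not tested.

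Snai1, a zinc finger repressor of E-cadherin that acts in the epithelial to mesenchymal transition, rose in both media. In FCS/LIF its level was 3.89 and 4.93 TPM in +E+N, 4.98 and 6.19 TPM in −E, 5.32 and 6.65 TPM in −N, and 9.04 and 9.94 TPM in −E−N. In TPM the +E+N libraries lay just below all others, and −E and −N overlapped. In CPM +E+N (4.82 to 5.80) and −E (5.53 to 6.85) overlapped too. The −E−N libraries stood clear above the rest, at 1.92-fold above +E+N (log2 fold change 0.94 ± 0.17 SE, adjusted p = 0.0019, edgeR). This call was lost without +E+N replicate 1 (adjusted p = 0.0141) or −E−N replicate 2 (adjusted p = 0.0196). In 2i/LIF its level was 2.62, 1.77 and 1.89 TPM in +E+N, 3.07, 1.97 and 2.98 TPM in −E, 5.58, 4.29 and 4.42 TPM in −N, and 10.4, 9.66 and 8.40 TPM in −E−N. The 2 states with NrKO cells were above the 2 without, and −E−N was above −N. Snai1 was 4.49-fold higher in −E−N than in +E+N (log2 fold change 2.17 ± 0.24 SE, adjusted p = 2.02e-05, edgeR), which held without any 1 library. In −N it was 2.27-fold higher (log2 fold change 1.19 ± 0.24 SE, adjusted p = 0.00776), and this call was lost in 8 of the 12 fits that left out 1 library, all but those without +E+N replicate 1, −E replicate 1 or 2, or −E−N replicate 3, with the log2 fold change at 1.02 or above.

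Meox1, a homeobox factor of somites and paraxial mesoderm, went in opposite directions in the 2 media. In FCS/LIF it had 28 and 33 counts in +E+N, 26 and 15 counts in −E, 22 and 20 counts in −N, and 6 and 5 counts in −E−N. The −E−N counts were below all others, and the fall was 5.29-fold (log2 fold change −2.40 ± 0.41 SE, adjusted p = 0.00147, edgeR), lost without −E−N replicate 2 (adjusted p = 0.0182). In 2i/LIF it had 0, 1 and 0 counts in +E+N, 4, 0 and 7 counts in −E, 5, 13 and 6 counts in −N, and 47, 59 and 217 counts in −E−N. The −E−N libraries stood far above the rest, and replicate 3 held most of the counts. The ratio of 323 counts to 1, scaled by the library totals, was 325 with an exact 95% interval of 57.9 to 12880, which covers counting error only. Meox1 was tested in 2i/LIF only because it was high in −E−N, and the fits without 1 library kept the same genes. Its adjusted p of 0.000119 (edgeR), below 0.01 also without any 1 library, is therefore a description. Also as a description, the log2 fold change of Meox1 in 2i/LIF −E−N was 4.79 against −E and 3.64 against −N. Without −E−N replicate 3 these were 3.77 and 2.62, and the second no longer passed, as it did not without any 1 of the −N replicates.

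The other 4 markers were low throughout, and none was called in −E−N against +E+N. Mixl1, a homeobox factor of the streak, lay between 0.26 and 0.70 TPM in the 20 libraries, with a log2 fold change of 0.87 ± 0.28 SE in −E−N in FCS/LIF (adjusted p = 0.0323, edgeR) and of 0.39 ± 0.33 SE in 2i/LIF (adjusted p = 0.374). Evx1, a homeobox factor of the posterior streak, was tested in FCS/LIF alone, with a log2 fold change of −0.61 ± 0.34 SE (adjusted p = 0.169, edgeR), and in 2i/LIF lay at 0.10 to 1.06 TPM, with its highest value in −E−N replicate 2 and 0.17 TPM in −E−N replicate 3. Lhx1, a LIM homeobox factor of the anterior streak and organizer, had 3 to 19 counts in FCS/LIF and 0 in 10 of the 12 libraries of 2i/LIF. Mesp1, a basic helix-loop-helix factor of nascent cardiac mesoderm, had 0 to 4 counts in every library. For Lhx1 and Mesp1, a change was not detectable at this depth.

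**Figure D2:**
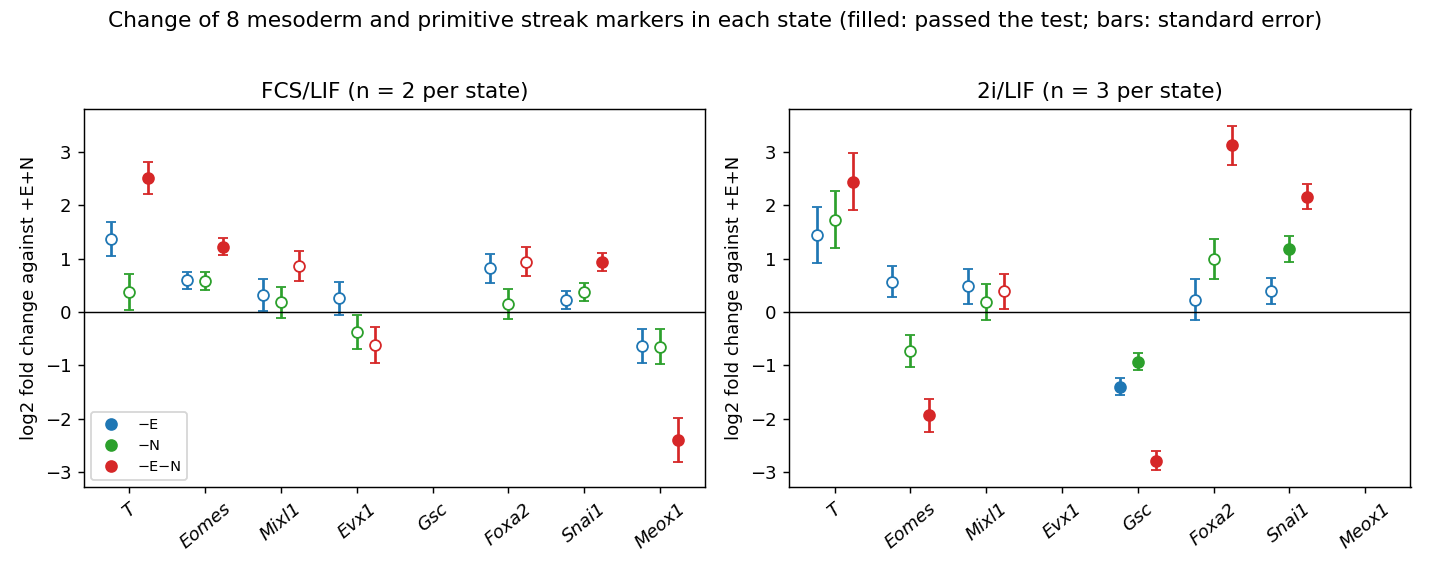
Log2 fold change against +E+N (vertical axis) in −E (blue), −N (green) and −E−N (red), with the standard error of the edgeR fit as bars and filled points for calls, in FCS/LIF (left, 2 libraries a state) and 2i/LIF (right, 3 libraries a state). Gsc in FCS/LIF and Evx1 in 2i/LIF were not tested, and Meox1 in 2i/LIF is left out because its +E+N libraries held 1 count in all. T rose by 2.51 and 2.45 in −E−N in the 2 media, whereas Eomes rose by 1.22 in FCS/LIF and fell by 1.94 in 2i/LIF.

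The states that lack a single factor were compared with +E+N next. The comparisons with +E+N share the +E+N libraries, so they are given side by side. In FCS/LIF, no marker of 7 was called in −E by edgeR (5.76% of all genes were; 3 markers had an unadjusted p under 0.05, and DESeq2 and limma called 0) or in −N (0.173% of all genes; 1 marker with an unadjusted p under 0.05, and 0 by DESeq2 and limma). The largest of these changes was that of T in −E, 2.58-fold (log2 fold change 1.37 ± 0.31 SE, adjusted p = 0.0171, edgeR), which passed without either −N replicate. In 2i/LIF, 1 marker of 7 was called in −E, against 1.55% of all genes, and 2 in −N, against 3.65%. T there had a log2 fold change of 1.44 ± 0.53 SE in −E (adjusted p = 0.142) and of 1.73 ± 0.53 SE in −N (adjusted p = 0.0559, edgeR), neither of which passed, whereas DESeq2 called T in −N (adjusted p = 0.00604).

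The loss of the second factor on top of the first was compared within each medium. In −E−N against −E, 5 of 7 markers were called in 2i/LIF, against 13.1% of all genes: Foxa2, Snai1 and Meox1 rose and Eomes and Gsc fell. In −E−N against −N, 4 were called, against 6.76% of all genes: Foxa2, Snai1 and Meox1 rose and Gsc fell. Snai1 in the latter was at the limit (log2 fold change 0.98 ± 0.23 SE, adjusted p = 0.00991, edgeR), lost in 9 of the 12 fits that left out 1 library, with adjusted p up to 0.0491, and kept without +E+N replicate 1 or −E replicate 1 or 2. Removing −N replicate 2 or 3 or −E−N replicate 3 left 2 calls, Foxa2 and Gsc. Meox1 entered the 2i/LIF fit only through −E−N, so its calls here and the counts of 5 and 4 that include them are a description. In FCS/LIF, T alone was called in −E−N against −N (log2 fold change 2.13 ± 0.28 SE, adjusted p = 0.000835, edgeR), against 10.1% of all genes, and 6 markers had an unadjusted p under 0.05. Without +E+N replicate 1 or 2, Eomes joined it (adjusted p = 0.00845 and 0.0085). In −E−N against −E, no marker was called by edgeR, against 5.05% of all genes, while 5 had an unadjusted p under 0.05, DESeq2 called 1 (Snai1) and limma called 0. T there had a log2 fold change of 1.14 ± 0.26 SE (adjusted p = 0.0173) that passed without either −N replicate.

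Whether the 2 losses together did more or less than the sum of their single effects was asked with an interaction term, the log2 change from −N to −E−N less the log2 change from +E+N to −E. No marker was called by edgeR in FCS/LIF (0.032% of all genes; 0 with an unadjusted p under 0.05, 0 by DESeq2 and by limma) or in 2i/LIF (0.307% of all genes; 2 with an unadjusted p under 0.05, 1 by DESeq2 and 0 by limma). Those 2 were Eomes, with an interaction of −1.78 ± 0.42 SE (adjusted p = 0.0655), and Foxa2, with 1.90 ± 0.52 SE (adjusted p = 0.11). Eomes was the marker DESeq2 called (adjusted p = 0.00236), and edgeR called it without −N replicate 1 (adjusted p = 0.00353). For Gsc the interaction was −0.45 ± 0.23 SE (adjusted p = 0.434) and for T −0.73 ± 0.71 SE (adjusted p = 0.723, edgeR).

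The +E+N cells of the 2 media were compared with each other. Of the markers, 4 of the 8 markers tested in a fit of all 20 libraries differed between 2i/LIF and FCS/LIF, against 34.7% of all genes, and the count is near enough to that share that it is no result about the markers as a group. Gsc, which entered this fit only through its 2i/LIF libraries and is given as a description, was 21.6-fold higher in 2i/LIF (log2 fold change 4.43 ± 0.26 SE), with 14 and 20 counts in the FCS/LIF libraries and 241 to 278 in those of 2i/LIF. Eomes was 3.49-fold higher (1.80 ± 0.31 SE, adjusted p = 8.13e-05, edgeR). Snai1 was 2.02-fold lower (−1.02 ± 0.23 SE, adjusted p = 0.00128), a call lost without FCS/LIF +E+N replicate 2 (adjusted p = 0.0198). Meox1 was lower too, with 61 counts in the FCS/LIF libraries and 1 in the 2i/LIF libraries (adjusted p = 0.000583). For T the log2 difference was 1.78 ± 0.62 SE (adjusted p = 0.0209, edgeR), which passed without 2i/LIF −E−N replicate 3.

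The response to the loss of both factors was then compared between the media, as the log2 response in FCS/LIF minus that in 2i/LIF, in the same fit. It passed the test for 4 of the 8 markers, against 13.2% of all genes. Gsc, which entered the fit only through 2i/LIF, is among these 4, so the count is a description. For Eomes the difference was 3.20 ± 0.42 SE (adjusted p = 4.88e-05, edgeR), held without any 1 of the 20 libraries, with a rise in FCS/LIF and a fall in 2i/LIF. For Gsc it was 2.38 ± 0.38 SE, a description, since Gsc entered the fit only through 2i/LIF and its FCS/LIF side rests on 14 and 20 counts in +E+N and 14 and 10 in −E−N, and it did not pass without FCS/LIF −E−N replicate 1. For Foxa2, which rose more in 2i/LIF, it was −2.15 ± 0.52 SE (adjusted p = 0.00637), lost in 7 of the 20 fits that left out 1 library, those without any 1 of the FCS/LIF +E+N or −E−N libraries, without 2i/LIF +E+N replicate 3, or without 2i/LIF −E−N replicate 1 or 2 (adjusted p up to 0.042). Without FCS/LIF −E−N replicate 1, 2 calls were left, Eomes and Meox1. Meox1 also differed (adjusted p = 4.81e-05), with the counts given above. T, which rose in both media, differed by 0.10 ± 0.75 SE (adjusted p = 0.947). Snai1, which also rose in both, differed by −1.19 ± 0.32 SE (adjusted p = 0.0131), a difference that passed in 4 of the 20 such fits.

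**Figure D3:**
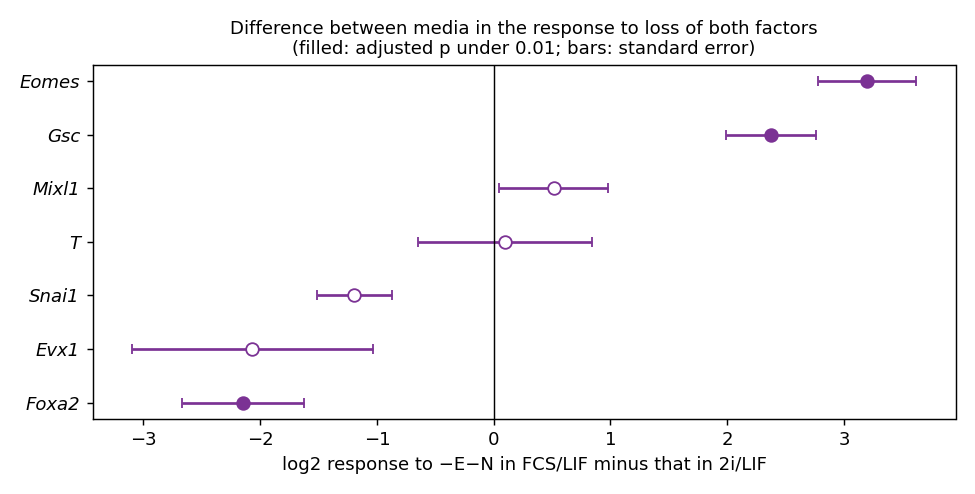
Log2 response to the loss of both factors in FCS/LIF minus that in 2i/LIF (horizontal axis) for 7 markers, with the standard error of the edgeR fit of all 20 libraries as bars and filled points for an adjusted p under 0.01. Eomes (3.20) and Gsc (2.38) lie to the right, Foxa2 (−2.15) to the left, and T (0.10) at zero. Meox1 is left out because its 2i/LIF +E+N libraries held 1 count in all.

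Among the markers themselves, the levels of T and Eomes moved together in FCS/LIF and apart in 2i/LIF. The Pearson correlation of their log2(CPM + 1) values was 0.887 over the 8 libraries of FCS/LIF and −0.604 over the 12 of 2i/LIF, a description over libraries that share states. For Foxa2 and Snai1 it was 0.694 and 0.93, and for Eomes and Snai1 0.919 and −0.881. In TPM, the highest of the 8 groups was −E−N in 2i/LIF for T (7.13 ± 3.22 SD, n = 3), Foxa2 (4.04 ± 0.86 SD) and Meox1 (2.13 ± 1.88 SD), −E in 2i/LIF for Eomes (5.10 ± 0.21 SD) and +E+N in 2i/LIF for Gsc (10.1 ± 1.38 SD). The ranges of T overlapped between each neighbour in that order down to −E in FCS/LIF, and Snai1 was at 9.49 TPM in −E−N in both media (SD 0.64, n = 2, in FCS/LIF and 1.01, n = 3, in 2i/LIF). The 5 genes whose log2(CPM + 1) over the 20 libraries was most like that of T, of 16147 tested, were Mfsd11 (r = 0.92), Cask (0.918), Pdgfa (0.912), Gm7765 (0.91) and Nme6 (0.908). Within FCS/LIF these correlations ranged from 0.708 to 0.978 and within 2i/LIF from 0.859 to 0.899.

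Related genes of gastrulation were followed in 5 lists of 52 genes. For comparison with their counts, 12.4% of all genes tested rose and 6.4% fell in −E−N against +E+N in FCS/LIF. The shares in 2i/LIF were 9.06% and 9.56%. Of 12 signals of the early streak, 10 were tested in FCS/LIF and 6 rose in −E−N against +E+N, with a median log2 fold change over the tested genes of 1.03 (0 over all genes). The 3 largest rises were those of the Wnt ligand gene Wnt3 (log2 fold change 3.39 ± 0.26 SE), the growth factor gene Fgf8 (3.18 ± 0.43 SE) and the Wnt target Sp5 (3.17 ± 0.22 SE). Fgf8 was tested only because of its −E−N libraries, with 46 to 53 counts there and 5 to 6 in +E+N. Its call and the count of 6 rises that includes it are therefore a description. In 2i/LIF, 9 were tested, 5 rose and 2 fell (median 1.07, 0.01 over all genes). Wnt8a, another Wnt ligand gene, went from 5, 3 and 14 counts to 484, 642 and 1523 (log2 fold change 6.88 ± 0.75 SE), Lefty1, an inhibitor of Nodal, rose by 3.32 ± 0.26 SE and Sp5 by 3.05 ± 0.38 SE. The falls were those of Nodal itself (−2.82 ± 0.23 SE) and of its co-receptor gene Tdgf1 (−1.98 ± 0.28 SE). Wnt8a (2.68 ± 0.18 SE in FCS/LIF), Sp5 and the Wnt feedback gene Axin2 (1.27 ± 0.16 SE in FCS/LIF and 1.64 ± 0.24 SE in 2i/LIF) passed in both media, as did the Nodal inhibitor Lefty1 (0.80 ± 0.07 SE in FCS/LIF) and T. Axin2, and Wnt8a and Lefty1 in FCS/LIF, were named after their values were seen.

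Of 12 genes of nascent and paraxial mesoderm, 7 were tested in FCS/LIF, none rose and 2 fell, Tcf15 (−1.50 ± 0.10 SE) and the retinoic acid hydroxylase gene Cyp26a1 (−1.30 ± 0.25 SE), with a median of 0.07. In 2i/LIF, 7 were tested, 4 rose and none fell (median 1.20). Hoxb1, a homeobox gene of the posterior embryo that was tested only because of its −E−N libraries, went from 1, 1 and 7 counts to 164, 305 and 938 (log2 fold change 7.22 ± 1.19 SE), the Notch ligand gene Dll1 rose by 4.42 ± 0.54 SE and Aldh1a2, a retinoic acid synthesis gene, by 2.61 ± 0.42 SE. The Hoxb1 call and the count of 4 rises that includes it are therefore a description. As for Meox1, the highest Hoxb1 count was in −E−N replicate 3, the library with the lowest T level of that state. Of 10 genes of lateral and extraembryonic mesoderm, 9 were tested in FCS/LIF, 7 rose and none fell (median 1.62), among them the transcription factor genes Msx1 (2.83 ± 0.20 SE) and Gata2 (2.64 ± 0.19 SE). In 2i/LIF, 6 were tested, Gata2 (4.86 ± 0.41 SE) and Msx1 (4.14 ± 0.59 SE) rose and the VEGF receptor gene Kdr fell (−3.56 ± 0.50 SE), with a median of 0.71.

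Of 10 genes of the node and definitive endoderm, 7 were tested in FCS/LIF and the chemokine receptor gene Cxcr4 rose (1.34 ± 0.33 SE), with a median of −0.09. In 2i/LIF, 5 were tested and 2 fell, Hhex (−1.59 ± 0.14 SE) and Gata4 (−1.52 ± 0.39 SE), with a median of −0.07. Gata4 passed the filter there only through +E+N, so its call and the count of 2 that includes it are a description. Of 8 genes of the epithelial to mesenchymal transition, 8 were tested in FCS/LIF, 3 rose and 2 fell (median 0.16). The N-cadherin gene Cdh2 (1.26 ± 0.11 SE), Twist1 (1.04 ± 0.15 SE) and Zeb2 (1.01 ± 0.23 SE) rose, and Zeb1 (−1.08 ± 0.21 SE) and the fibronectin gene Fn1 (−0.73 ± 0.07 SE) fell. In 2i/LIF, 7 were tested, with Zeb2 (3.48 ± 0.34 SE) and Cdh2 (2.00 ± 0.35 SE) higher and Fn1 (−0.79 ± 0.19 SE) and Zeb1 (−0.64 ± 0.10 SE) lower (median −0.22). The lists are described by these counts and medians, each call at an adjusted p under 0.01 in edgeR.

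**Figure D4:**
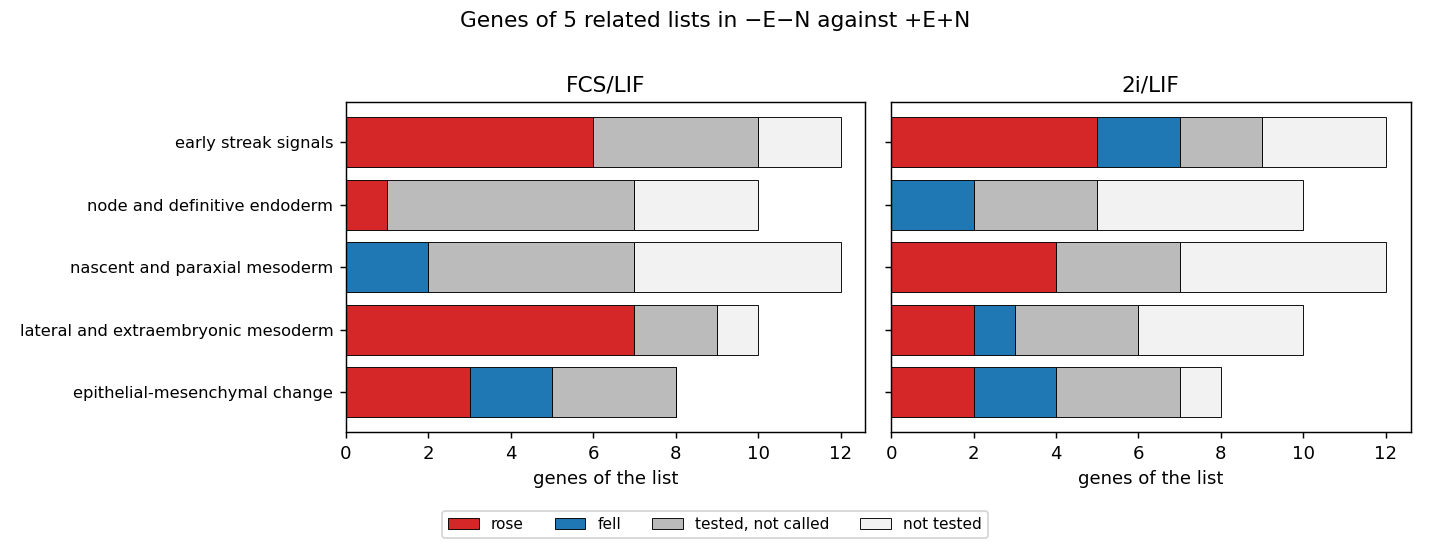
Number of genes (horizontal axis) of 5 lists that rose (red), fell (blue), were tested and not called (grey) or were not tested (light) in −E−N against +E+N, in FCS/LIF (left) and 2i/LIF (right). Of the lateral and extraembryonic mesoderm genes 7 of 9 tested rose in FCS/LIF and 2 of 6 tested in 2i/LIF, and of the nascent and paraxial mesoderm genes 0 of 7 tested rose in FCS/LIF and 4 of 7 tested in 2i/LIF. The 4 rises in 2i/LIF include Hoxb1, which was tested only because of its −E−N libraries, so that count is a description. Over all genes tested, 12.4% rose in FCS/LIF and 9.06% in 2i/LIF.

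The markers of other cell types in the cultures moved with the loss of both factors as well, and their part in the results above was not tested. Over all genes tested, 12.4% rose and 6.4% fell in FCS/LIF, and 9.06% rose and 9.56% fell in 2i/LIF. Of the 4 ESC markers, 4 fell in FCS/LIF and 3 in 2i/LIF. Of the 5 neural markers (Pax6, Sox1, Nes, Sox3 and Olig3), 3 rose and 1 fell in FCS/LIF and 3 rose in 2i/LIF, and their summed level went from 15.7 to 15.87 TPM in +E+N to 48.4 to 51.12 TPM in −E−N in FCS/LIF and from 8.34 to 11.58 TPM to 18.66 to 31.64 TPM in 2i/LIF. Of the 4 formative epiblast markers (Fgf5, Dnmt3b, Pou3f1 and Otx2), 2 rose and 1 fell in FCS/LIF, and of 3 tested in 2i/LIF 1 rose and 1 fell. Of the 4 fibroblast markers (Col1a1, Col1a2, Col3a1 and Thy1), 3 rose in FCS/LIF with a summed level of 4.88 to 5.57 TPM across +E+N and −E−N, and of 3 tested in 2i/LIF 1 rose and 1 fell, with at most 2.65 TPM. The markers of cells that resemble the early cleavage embryo, Zscan4c and Zscan4d, did not pass in FCS/LIF and both rose in 2i/LIF, from 2.34 to 3.8 TPM summed to 29.0 to 81.3 TPM, the highest of which was in −E−N replicate 3.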

How the data were processed

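RNA was sequenced as stranded, polyadenylated, paired-end libraries. The authors aligned reads to mm10 with STAR and estimated expected counts per gene with RSEM. These expected counts were deposited as whole numbers without normalization between libraries. The authors' TPM values, also deposited, are scaled by transcript length and sum to the same total in each library. RSEM estimation and the length used for TPM can shift genes with several isoforms. Program versions and the annotation are not given in the sources used here. The 92 spike-in rows held no counts and were left out.

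For each medium, 1 fit in edgeR 4.0.16 (R 4.3.3, TMM scaling, quasi-likelihood test) covered its 4 states. Tested genes had 20 counts or more in every replicate of some state, 15636 in FCS/LIF and 14355 in 2i/LIF. Comparisons between media used 1 fit of the 20 libraries as 8 groups (16147 genes). Calls were made at an adjusted p under 0.01 and a fold change over 1.5, without the fold limit for the interaction and the difference of responses. The standard error is the log2 fold change divided by the root of the F statistic. The steps were tested on simulated data. The study describes its replicates as independent experiments, and replicate numbers were not used as a pairing. Total counts per library set the counting error, and intervals are exact 95% binomial (Clopper-Pearson). Gene coordinates came from GENCODE vM21 and upstream sequences from RefSeq.

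The members and the gene lists were chosen with earlier results of these data known. Named genes were all 10 members, Esrrb and Nr5a2, the 3 largest rises and falls among called genes of each list in −E−N against +E+N, and the 5 genes most correlated with T, and 1 gene that this rule names is not reported here. Marker lists covered ESCs, formative epiblast, neural cells, primitive endoderm, trophectoderm, fibroblasts and cleavage-like cells. Alternatives were DESeq2 1.42.0 (Wald test, no independent filtering), DESeq2 size factors in edgeR, no filter (at least 1 count), filterByExpr, limma 3.58.1 on log2(TPM + pseudocount), with a pseudocount of 1 or 0.1, the replicate block, all 20 libraries in one fit, CPM in place of TPM for the order of groups, and leaving out each library. CPM are counts scaled to a common TMM-adjusted library total.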

Additional observations from a re-analysis of the deposited data

Results flagged for a closer look

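The response of 4 markers to the loss of both factors differed between the media by the test of the difference itself (edgeR, adjusted p under 0.01). In log2 units, FCS/LIF minus 2i/LIF, Eomes differed by 3.20 (adjusted p = 4.88e-05), higher in −E−N than in the mean of +E+N in 2 of 2 FCS/LIF libraries and lower in 3 of 3 2i/LIF libraries. Gsc differed by 2.38, with no more than 20 counts in any FCS/LIF library. It entered the fit only through 2i/LIF, so its difference and the count of 4 that includes it are a description. Foxa2 differed by −2.15 (adjusted p = 0.00637), with a higher level in −E−N in 2 of 2 and 3 of 3 libraries. Meox1 differed by −10.28 (adjusted p = 4.81e-05), a fitted value that depends on the prior count because the 2i/LIF +E+N libraries held 1 count in all.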

How the results depend on the processing

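Of the counts of called markers and orders of levels recomputed under the alternatives, 238 stayed within 1.5 times the value given, 14 fell below and 17 rose above it. Of the changes of single markers, 1462 kept their side of the threshold, 43 lost a call, 39 gained one and 0 reversed with a call. A change of sign where neither fit gave a call was counted as kept. For T in −N against +E+N in FCS/LIF, the log2 fold change ran from −0.077 to 0.744 over the fits that left out 1 library. With no filter on low counts, the markers called in FCS/LIF were 1 in −E, 3 in −E−N against −N and 4 in −E−N against −E, and in 2i/LIF 1 in the interaction. DESeq2 called 1 in −E−N against −E in FCS/LIF and 1 in the interaction in 2i/LIF, limma on log2(TPM + 0.1) called 1 in −E in FCS/LIF, and all 20 libraries in one fit called 0 in −E−N against −N in FCS/LIF. With the replicate block, the markers called in FCS/LIF were 1 in −E, 3 in −E−N against −N and 2 in −E−N against −E, and in 2i/LIF 3 in −N (T joined) and 5 in −E−N against −N (Eomes joined), while no marker call of the reported fits was lost. Over all genes the block moved the calls in FCS/LIF from 901 to 1296 in −E and from 27 to 305 in −N, and in 2i/LIF from 223 to 596 in −E and from 524 to 1115 in −N. Deviations of libraries with the same number correlated at 0.116 to 0.533 in FCS/LIF, with 2 numbers, and at 0.00792 to 0.658 in 2i/LIF, with 17 of 18 correlations over 0.1, and 11 of the 12 libraries of 2i/LIF deviated most like those of their own number, a hint from the data and not from the design. The causes were not tested. Leaving out 1 library gave, in FCS/LIF, 0 to 1 called in −E, 2 to 4 in −E−N against +E+N, 1 to 2 against −N and 0 to 1 against −E. In 2i/LIF it gave 0 to 2 in −N, 2 to 4 in −E−N against −N and 0 to 1 in the interaction, and for the difference of responses between media 2 to 5. By CPM in place of TPM the highest group was the same for 8 of 10 markers, with Mixl1 and Snai1 the exceptions. Meox1 in FCS/LIF −E−N was not called on log2(TPM + 1) (−0.40), a scale that compresses its low levels. Low counts limit Mesp1, Lhx1, Evx1 and Mixl1, and 2 replicates a state limit FCS/LIF.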
